A study of Trichoderma reesei with 12 samples.

Results

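Between the 3 libraries of the Trichoderma reesei parent strain kept in constant darkness, 84 genes above a set level differed by at least 15-fold. The 84 come from the 10179 of 10879 identifiers left after the ends of the letter series were set aside. They were chosen by a rule on the CPM (each gene's count scaled by its library's total): among the replicates of this group the highest CPM was above 20, the ratio of the highest to the lowest, each with 1 CPM added, was at least 15, and identifiers among the first 50 or last 50 numbers of their letter series were left out. Trichoderma reesei is a filamentous fungus that degrades plant cell walls, and RNA was taken from mycelium after 96 h on cellulose at 28 °C. The parent strain is QM6a-delta-ku80, labelled WT, from which ku80, needed for non-homologous end joining, was deleted. The second strain, QM6a-delta-ku80-delta-tmk3, lacks ku80 and also tmk3, so all 4 groups share the ku80 deletion. Both strains were grown in constant darkness and in constant light, and every group has 3 libraries. The labels used here name neither a complemented strain nor a number of clones, so loss of tmk3 cannot be told apart from other differences between the strains, and the tmk3 transcript was not checked because no identifier is named. Nothing in the labels tells whether the libraries of a group stem from different cultures. The p-values below therefore rest on library-to-library spread that could be technical.

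tmk3 encodes a mitogen-activated protein kinase of the Hog1 type. In fungi such kinases sit at the end of a phosphorylation cascade, are activated by high osmolarity and other stress, and act on transcription in the nucleus. Light is a second input to gene expression in Trichoderma reesei, read by photoreceptor complexes of the White Collar type and by the small photoreceptor ENV1, and it also affects the transcription of cellulase genes. Apart from 3 without a series, the identifiers of the count table hold a series letter (A to G), a running number and W or C. The file does not pair them with gene names and 0 of them were found among the 9116 genes of the reference table, so no name, role or sequence can be given for any of the 84.

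The 12 libraries held between 11599300 and 17702344 counts, and a count of 0 leaves room for 0.169 CPM at the greatest depth and for 0.259 CPM at the least (3 counts, counting error only). All pairs of libraries of a group differed by more than sampling noise, with a chi-square divided by its degrees of freedom that ran from 12.4 between replicates 2 and 3 of the deletion strain in light to 461 between replicates 2 and 3 of the dark parent. Replicate 2 of the dark parent also had the lowest scaling factor of the 12 libraries by edgeR's trimmed mean of M values (TMM), 0.761, where the others lay between 0.925 and 1.11. The 84 genes were chosen on this group, and both comparisons tested below were fitted without its 3 libraries.

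All 84 genes had their highest level in replicate 2 of the dark parent, an intermediate level in replicate 1 and their lowest in replicate 3. The rule asked for a wide range, not for this order. Across the 84, levels ran from 3.27 to 2065 CPM in replicate 1 (median 42.4), from 21.0 to 10630.3 in replicate 2 (median 233) and from 0 to 139 in replicate 3 (median 5.87). The ratio of highest to lowest had a median of 32.0 and reached 274 for TrD1254C. Each step of the order, with 1 CPM added, was at least 2-fold in all 84: replicate 2 exceeded replicate 1 by a median of 5.16-fold (2.09 to 12.3), and replicate 1 exceeded replicate 3 by a median of 6.31-fold (2.19 to 76.7). On the log2 scale replicate 1 lay at a median of 0.526 of the way from replicate 3 to replicate 2, with a range of 0.277 to 0.777. Among the other 5438 identifiers above 20 CPM and away from series ends, 964 (17.7%) had this order and the median ratio was 1.61. With TMM-scaled library sizes the median ratio of these other identifiers was 1.42. Replicate 2 was then the highest for 38.8% of them, in place of 25.5%. The dark parent values chose the 84 genes and carry no test.

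**Figure D1:**
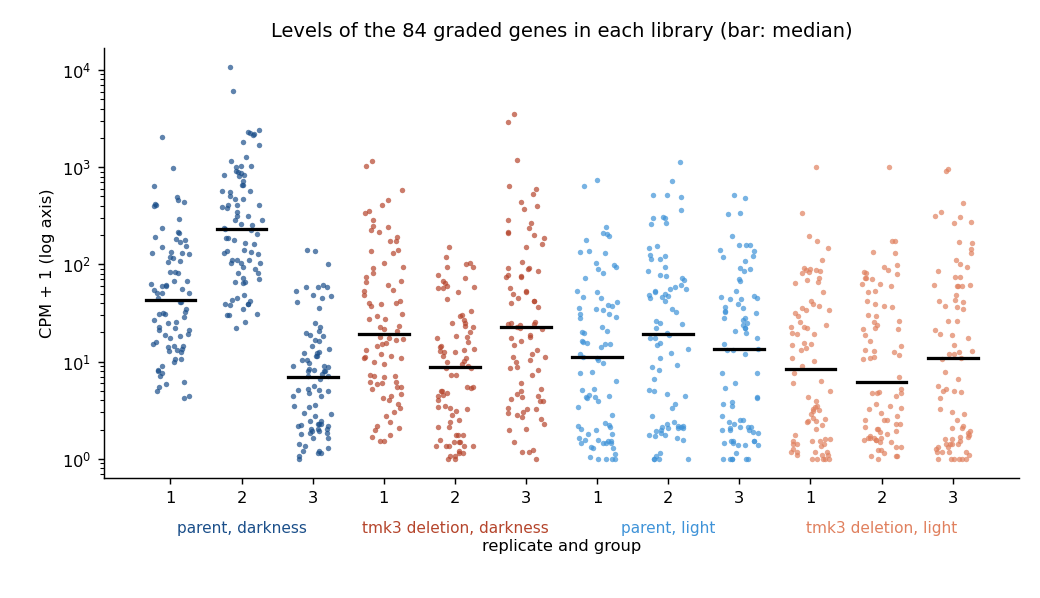
Level of each of the 84 graded genes (points, CPM + 1 on a log axis) in the 12 libraries, by group and replicate, with the median as a bar. In the dark parent, which chose the genes, the medians are 42.4, 233 and 5.87 CPM; in the 9 other libraries they lie between 5.11 and 21.6 CPM.

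The thresholds cut through a continuous range. By ratio, TrE0943C (15.1) and TrB1158C (15.1) were just inside, and TrC1360C (14.8) and TrB1305C (14.8) just outside. By level, TrA0422W (highest replicate 21.0 CPM) and TrD1007C (24.6 CPM) were just inside, and TrF0862W (19.2 CPM) and TrC1496W (14.0 CPM) just outside. A further 33 identifiers had ratios of at least 10 without reaching 15, and all 33 showed the same order of replicates.

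Together the 84 took 5.56% of all counts in replicate 2 of the dark parent, 1.08% in replicate 1 and 0.128% in replicate 3. The most abundant was TrB0705C, which held 2065, 10630.3 and 137 CPM in replicates 1, 2 and 3, the largest single part of the summed level in replicate 2. Without it the sums were 8781, 44943 and 1146 CPM, a description only, since each of the other genes was also chosen for its range among these libraries. TrE1049W stood at 972, 6051 and 100.4 CPM, and TrG0427W at 405, 2430.2 and 139 CPM. TrA0993W followed with 415, 2298 and 60.5 CPM, TrA0224W with 639, 2223 and 7.34 CPM and TrC0773W with 438, 2217 and 9.36 CPM. In each of these 6, replicate 3 was the lowest of the group by a wide margin, yet its level ranged from 7.34 CPM for TrA0224W to 139 CPM for TrG0427W. Levels are CPM without gene lengths, which the file does not hold, so they do not rank transcripts by number of molecules. In these bulk samples fewer cells of a kind and less RNA per cell cannot be told apart.

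In the 3 groups that the rule did not use, the same genes were again unlike between replicates. To keep counting error small, this was read on genes with a mean of at least 20 counts in the group, and the orders of replicates were noticed after the values were seen. In the dark deletion strain 79 of the 84 qualified, with a median ratio of highest to lowest replicate of 3.63 against 1.21 for the other 5426 identifiers above 20 CPM in the dark parent. The ratio was at least 3 for 44 of the 79 (55.7%), against 1.38% of the others. In the parent in light the median was 2.05 over 61 genes against 1.21, and 16 (26.2%) reached 3 against 0.82%. In the deletion strain in light it was 1.59 over 54 genes against 1.11, with 11 (20.4%) at 3 or more against 0.544%. In each of the 3 groups the median ratio of the graded genes was below the 15-fold that defined the set and above that of the other identifiers.

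The replicate that stood low or high was largely shared as well. In each group the replicate named was picked from the graded genes themselves, so the shares are a description. In the dark deletion strain, replicate 2 was the lowest for 65 of the 79 genes (82.3%), against 26.7% of the other identifiers, and the highest for 1. In the parent in light, replicate 2 was the highest for 44 of 61 (72.1%), against 45.8%. In the deletion strain in light, replicate 3 was the highest for 32 of 54 (59.3%), against 21.5%. With TMM-scaled library sizes the counts were 67, 43 and 32, beside 33.2%, 38.1% and 34.0% of the others. The library that was high in the dark parent had the same number as the one that was low in the dark deletion strain, and the labels do not say whether a number stands for anything shared.

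The full set of 3 orders, with replicate 2 lowest in the dark deletion strain, replicate 2 highest in the parent in light and replicate 3 highest in the deletion strain in light, was shown by 29 of the 52 genes with enough counts in all 3 groups (55.8%) and by 235 of 5310 other identifiers (4.43%, or 5.99% with TMM scaling). The summed level of these 29 was 6261, 982 and 12377 CPM in replicates 1, 2 and 3 of the dark deletion strain. It was 1642, 5579.8 and 2204 CPM in the parent in light, and 1793, 1422 and 4110.0 CPM in the deletion strain in light. For the other 23 of the 52 the sums were 1470, 706 and 1529 CPM, then 2402, 1681 and 1899.6 CPM, then 1655, 1696 and 1629 CPM. These orders were picked as the commonest among the graded genes, which favours a higher share among them from the start. The shares are a description, not a test. The split into 29 and 23 was made on these orders, so the sums describe the sizes of the differences and are no further support for them. In the dark parent, the 29 and the 23 had like median ratios, 28.9 and 27.4.

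**Figure D2:**
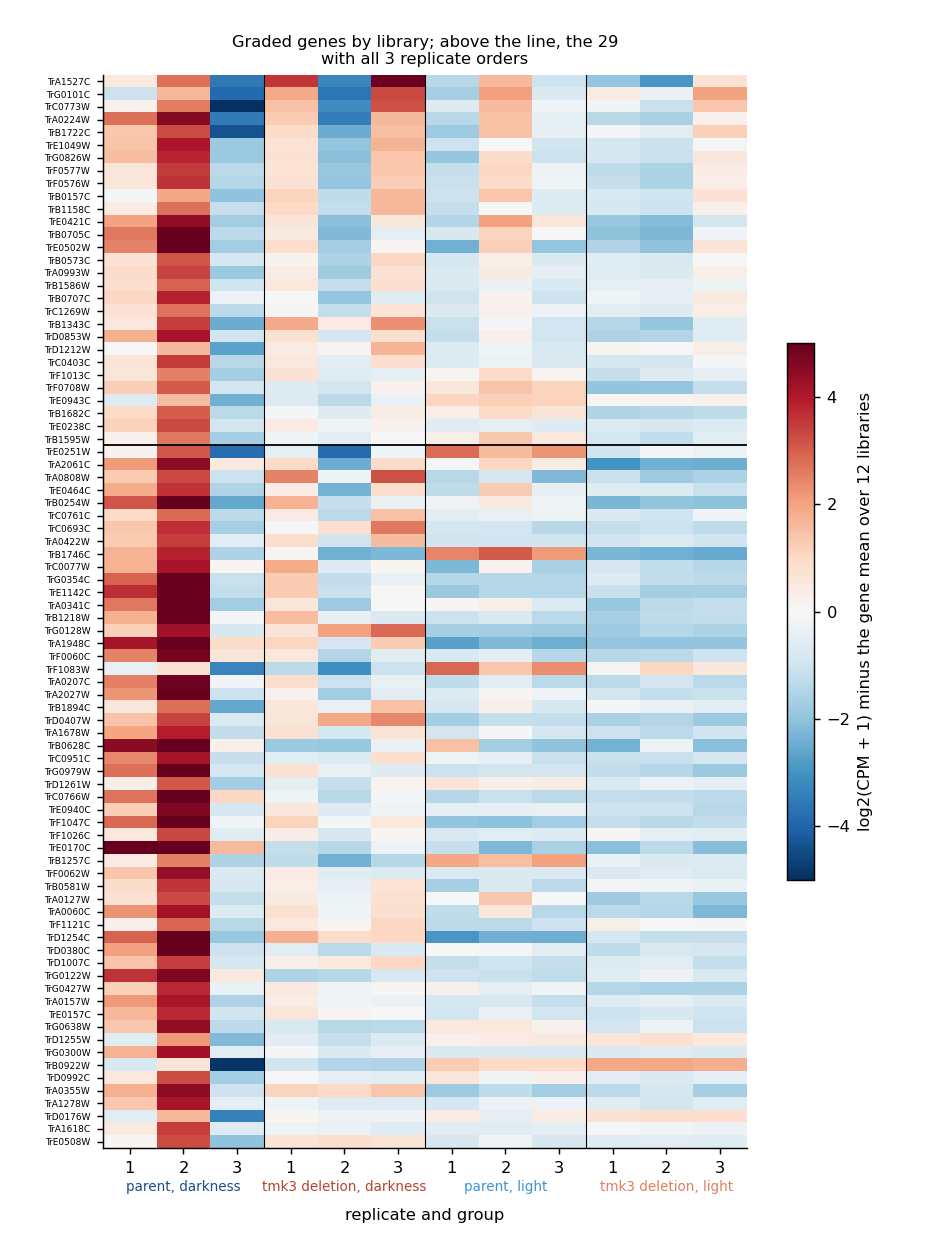
Each row is a graded gene and each column a library; colour is log2(CPM + 1) minus the gene's mean over the 12 libraries, with values beyond 5 drawn at the end of the scale. The 29 genes above the line have all 3 replicate orders in the groups that the rule did not use, and the other genes, including those with too few counts to be read for order, lie below it.

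Genes that met the rule's own thresholds in another group were few. In the dark deletion strain 5 of the 84 did so, among 10 of 10179 identifiers away from series ends (0.0982%). In the parent in light 0 of the 84 did, among 1 identifier in all (0.00982%), and in the deletion strain in light 0 did, among 0 identifiers (0.00%). The widest of the 5 was TrA1527C, with 1158, 9.03 and 2913 CPM in replicates 1, 2 and 3 of the dark deletion strain. TrG0101C held 243, 4.3 and 643 CPM there, TrC0773W 1037, 43.1 and 3544 CPM, and TrA0224W 224, 7.62 and 285 CPM. The remaining gene was TrB1722C, at 356, 32.3 and 535 CPM. In all 5, replicate 2 was low against replicates 1 and 3, which were closer to each other.

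These 5 kept a grade in light. TrA1527C stood at 36.2, 299 and 46.4 CPM in replicates 1, 2 and 3 of the parent in light and at 24.4, 11.7 and 164 CPM in the deletion strain. TrG0101C stood at 19.7, 266 and 38 CPM and 84.9, 51.1 and 263 CPM in the same libraries. For TrC0773W the values were 239.6, 1127 and 325 CPM, then 338, 171 and 948 CPM. In all 5 genes replicate 2 was the highest in the parent in light and replicate 3 in the deletion strain in light. TrA1527C, TrC0773W and TrG0101C are also 3 of the 6 graded genes whose highest level over all 12 libraries was not in replicate 2 of the dark parent; for the other 78 it was. The other 3 of the 6 are TrB0922W, TrD1212W and TrF1083W.

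Outside the dark parent the graded genes mostly lay between its extremes. The mean of the dark deletion strain lay between replicates 3 and 1 of the dark parent for 60 of the 84, between replicates 1 and 2 for 13, below replicate 3 for 9 and above replicate 2 for 2. For the parent in light these counts were 47, 11, 24 and 2, and for the deletion strain in light 47, 7, 29 and 1. All 3 libraries lay below all 3 of the dark parent for 5 genes in the dark deletion strain, 18 in the parent in light and 24 in the deletion strain in light. They lay above all 3 for 0, 2 and 1 genes. The remaining genes overlapped with the dark parent, which has by choice a wide range in these genes, and no comparison with it was tested here. None of these counts was taken over the other identifiers, so they do not set the graded genes apart. Median group means were 15.2 CPM in the dark deletion strain, 14.95 CPM in the parent in light and 6.51 CPM in the deletion strain in light. Among these 3 groups the highest mean was in the dark deletion strain for 56 of the 84, in the parent in light for 22 and in the deletion strain in light for 6. How often each group was highest among the other identifiers was not counted.

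Single genes held very different levels elsewhere. TrB0922W had the highest mean of the 9 other libraries relative to the dark parent: from 155, 412 and 7.78 CPM in replicates 1, 2 and 3 of the dark parent it went to 638, 523 and 516 CPM in the parent in light, and the dark deletion strain held 137, 93.5 and 90.4 CPM. Its 3 parent libraries in light lay above all dark parent libraries. TrF1083W was at 12.6, 29.5 and 0.792 CPM in the dark parent and at 129.6, 44.5 and 89.2 CPM in the parent in light, also without overlap. TrG0101C, next in this order, was described above for its grade and held 29.6, 204 and 3.46 CPM in the dark parent.

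At the other end, TrF0062W held 3.27, 33.4 and 0 CPM in the dark parent and 0 counts in all 3 libraries of the parent in light. TrG0300W was alike, with 4.49, 28.8 and 0.144 CPM and 0 counts, and TrA0422W also had 0 counts in this group. TrE0170C held 179, 406 and 13.5 CPM in the dark parent, 1.08, 0.776 and 2.97 CPM in the dark deletion strain, 1.13, 0 and 0.531 CPM in the parent in light and 0.0862, 0.872 and 0.0846 CPM in the deletion strain in light. Even replicate 3 of the dark parent, the lowest of its group, was above each of the 9 others for this gene. Group means below 1 CPM were found for 5 of the 84 in the dark deletion strain, 20 in the parent in light and 24 in the deletion strain in light. Such means were not counted among the other identifiers, so these counts do not set the graded genes apart.

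The first comparison that does not involve the dark parent asked which of these genes differed between the strains in constant light. After a filter on low counts 80 of the 84 could be tested, and TrA0422W, TrC0766W, TrF0062W and TrG0300W could not. The filter asked for enough counts in any 3 of the 9 fitted libraries. A gene kept through the parent in light alone, such as TrB1746C, was thus bound to be lower in the deletion strain. The counts and the median below include such genes. In the deletion strain 22 of the 80 were called, where 32.4% of all genes were: 18 fell and 4 rose (edgeR's quasi-likelihood test, Benjamini-Hochberg adjusted p below 0.05 over 8794 genes), while 16.0% of all genes tested fell and 16.5% rose. By at least 2-fold, 16 fell and 2 rose, against 7.18% and 8.30% of all genes. The median log2 fold change of the 80 was -0.70, beside -0.0013 over all genes, and 58 of the 80 had a value below 0. Without replicate 1 of the light-grown deletion strain 10 of the 82 then tested fell, beside 990 of 8947 genes (11.1%). The number of graded genes that fell was between 13 and 22 when any other of the 9 libraries was left out. With libraries scaled by total count alone 18 fell and 8 rose, in a fit where 1020 of all genes fell and 1947 rose in place of 1405 and 1447.

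TrB1746C fell furthest. The parent in light held 29.9, 46.5 and 24.1 CPM in replicates 1, 2 and 3 and the deletion strain 0.172, 0.0793 and 0 CPM, which is 3 counts in the group. The ratio of group totals was 401 (95% exact interval 137 to 1948, counting error only), with a log2 fold change of -8.61 (SE 1.31, adjusted p = 0.000765 by edgeR). The same gene was low in the dark deletion strain too, at 5.23, 0.0705 and 0.182 CPM, where only replicate 1 stood clear of 0.

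TrA2061C fell from 10.3, 23.2 and 14.3 CPM to 0.517, 1.27 and 1.18 CPM, a log2 fold change of -4.09 (SE 0.93, adjusted p = 0.00762 by edgeR). TrA0127W fell from 3.39, 10.0 and 3.26 CPM to 0.259, 0.634 and 0.169 CPM, with -4.01 (SE 0.67, adjusted p = 0.00131 by edgeR). The groups did not overlap for either gene. TrG0427W, one of the most abundant members, fell from 210.3, 125 and 157 CPM to 64.5, 58.9 and 59 CPM, with -1.55 (SE 0.22, adjusted p = 0.000429 by edgeR), again without overlap. TrE0943C, at the edge of the rule, fell from 135, 148 and 140.3 CPM to 67.6, 71.3 and 73.1 CPM, with -1.11 (SE 0.21).

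The 4 genes that rose were TrD1254C, TrF1121C, TrB0581W and TrB0922W. TrD1254C went from 0.452, 1.06 and 0.986 CPM to 5.0, 3.73 and 3.89 CPM, a log2 fold change of 2.25 (SE 0.38, adjusted p = 0.00138 by edgeR). Both groups were far below the 806 CPM that this gene reached in replicate 2 of the dark parent. TrF1121C went from 4.07, 4.01 and 5.08 CPM to 14.5, 11.6 and 11 CPM, with 1.38 (SE 0.26). TrB0581W went from 9.49, 18.8 and 12.4 CPM to 30.6, 28.4 and 25.2 CPM, with 0.94 (SE 0.30, adjusted p = 0.0353 by edgeR), and was not called without replicate 1 or 3 of the parent in light or without any 1 of the 3 deletion libraries in light (log2 fold change 0.75 to 1.007), nor with the replicate number as a block (0.95). For TrB0922W the deletion strain was higher by 0.68 (SE 0.16), at 994, 996 and 920.3 CPM.

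**Figure D3:**
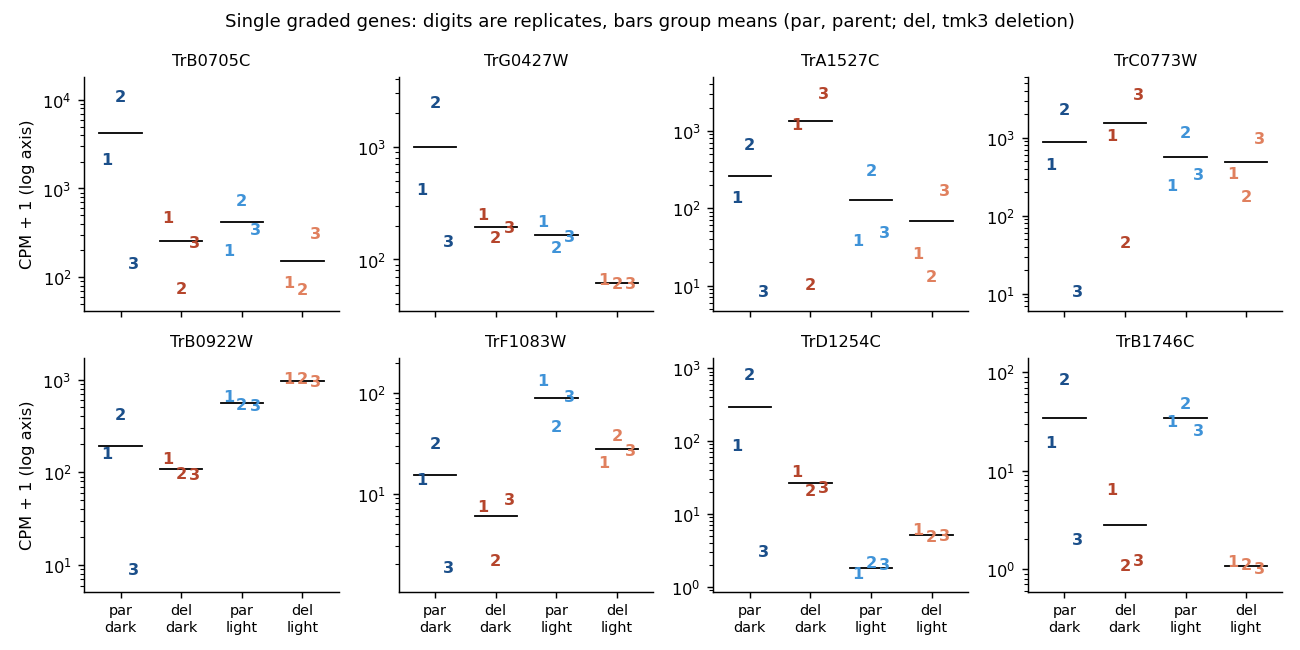
Levels of 8 graded genes in CPM + 1 (log axis) in the parent and the tmk3 deletion strain in darkness and light; digits are replicate numbers and bars group means. TrA1527C and TrC0773W show a low replicate 2 in the dark deletion strain, TrB0922W is highest in light, and TrB1746C is at 0.0793 to 0.172 CPM or 0 in the deletion strain in light.

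Of the 58 tested genes that were not called, 16 had an estimated change of at least 2-fold. TrB0705C was one, at 194, 718 and 338 CPM in the parent and 82.6, 70.2 and 304 CPM in the deletion strain, with a log2 fold change of -1.54 (SE 0.74, adjusted p = 0.141 by edgeR). TrA0224W was another, at 34.5, 257 and 66.1 CPM and 34.5, 29.3 and 109 CPM, with -1.13 (SE 1.05, adjusted p = 0.442 by edgeR). The groups overlapped for both.

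The second comparison asked how light differed from darkness in the strain without tmk3. In light 38 of the 80 genes were called, where 51.2% of all genes were: 31 fell and 7 rose, while 27.1% of all 8794 genes fell and 24.1% rose. By at least 2-fold, 28 fell and 4 rose, against 14.7% and 6.31% of all genes. The median log2 fold change was -1.15, beside -0.0044 over all genes, and 69 of the 80 had a value below 0. Replicate 2 of the dark deletion strain, the library in which most of these genes were low, weighed on the count: without it 50 of the 82 then tested fell, beside 2303 of 8903 genes (25.9%), and 19 of these had not been called with it. Among the 19, TrA0422W and TrC0766W had not passed the filter with it and so had not been tested. The 19 included TrE1049W, with a log2 fold change of -1.38 (SE 0.69, adjusted p = 0.121 by edgeR) with that library and -1.89 (SE 0.41) without it. TrA0224W was another, with -1.57 (SE 1.06, adjusted p = 0.239 by edgeR) with it and -2.13 (SE 0.77) without it. Leaving out a library in which these genes were low itself favours more falls, so the 19 are no separate support. Leaving out any other library gave between 25 and 33 genes that fell. This comparison shares the 3 deletion libraries in light with the first. A gene kept by the filter through the dark deletion strain alone, such as TrG0128W or TrD1007C, was bound to be lower in light. The counts and the median of this comparison include such genes, whose number was not counted.

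TrG0128W fell furthest, from 4.46, 13.4 and 24.1 CPM in replicates 1, 2 and 3 in darkness to 0, 0.317 and 0.169 CPM in light. The counts were 645 in the dark group and 6 in light, a ratio of totals of 88.7 (95% exact interval 40.5 to 243, counting error only), with a log2 fold change of -6.31 (SE 0.82, adjusted p = 0.000141 by edgeR). In the dark deletion strain its order of replicates was not that of most graded genes, since replicate 1 was the lowest. TrD0407W went the same way, from 6.15, 16.3 and 23.5 CPM to 0.517, 0.714 and 0.339 CPM, with -4.83 (SE 0.57, adjusted p = 7.35e-05 by edgeR). It passed the filter only with its dark deletion libraries, so its fall too was favoured in advance.

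TrA1527C had a log2 fold change of -4.33 (SE 1.65), close to the threshold with an adjusted p by edgeR of 0.0493. Its dark libraries overlapped with those in light, since replicate 2 in darkness, at 9.03 CPM, lay below all 3 in light. Without that library the value was -4.91, and without replicate 3 in light -6.24. Without replicate 3 in darkness it was -3.10 and not called, and 5 further libraries, left out singly, also ended the call: replicate 1 in darkness, replicates 1 and 2 in light, and replicates 1 and 3 of the parent in light. The call was also lost with the replicate number as a block (-4.58) and in a fit of the 2 groups alone (-4.32). TrG0427W, by contrast, fell without overlap, from 246, 151 and 187 CPM to 64.5, 58.9 and 59 CPM, with -1.66 (SE 0.22, adjusted p = 0.000137 by edgeR). TrD1254C fell from 36.6, 19.3 and 21.4 CPM to 5.0, 3.73 and 3.89 CPM, with -2.60 (SE 0.30, adjusted p = 6.65e-05 by edgeR).

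Of the 7 genes that rose in light without tmk3, TrB0922W changed most, from 137, 93.5 and 90.4 CPM to 994, 996 and 920.3 CPM, a log2 fold change of 3.20 (SE 0.17, adjusted p = 4.87e-07 by edgeR). TrF1083W rose from 6.23, 1.13 and 7.52 CPM to 18.7, 35.9 and 25.4 CPM, with 2.43 (SE 0.57, adjusted p = 0.00521 by edgeR). TrD1255W rose from 15.9, 9.95 and 13.9 CPM to 36.3, 41.1 and 33.8 CPM, with 1.499 (SE 0.17, adjusted p = 6.49e-05 by edgeR). None of these 3 genes had overlapping groups. The other 4 that rose were TrB1257C, TrD0176W, TrE0943C and TrG0122W, with log2 fold changes between 0.73 and 1.49.

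**Figure D4:**
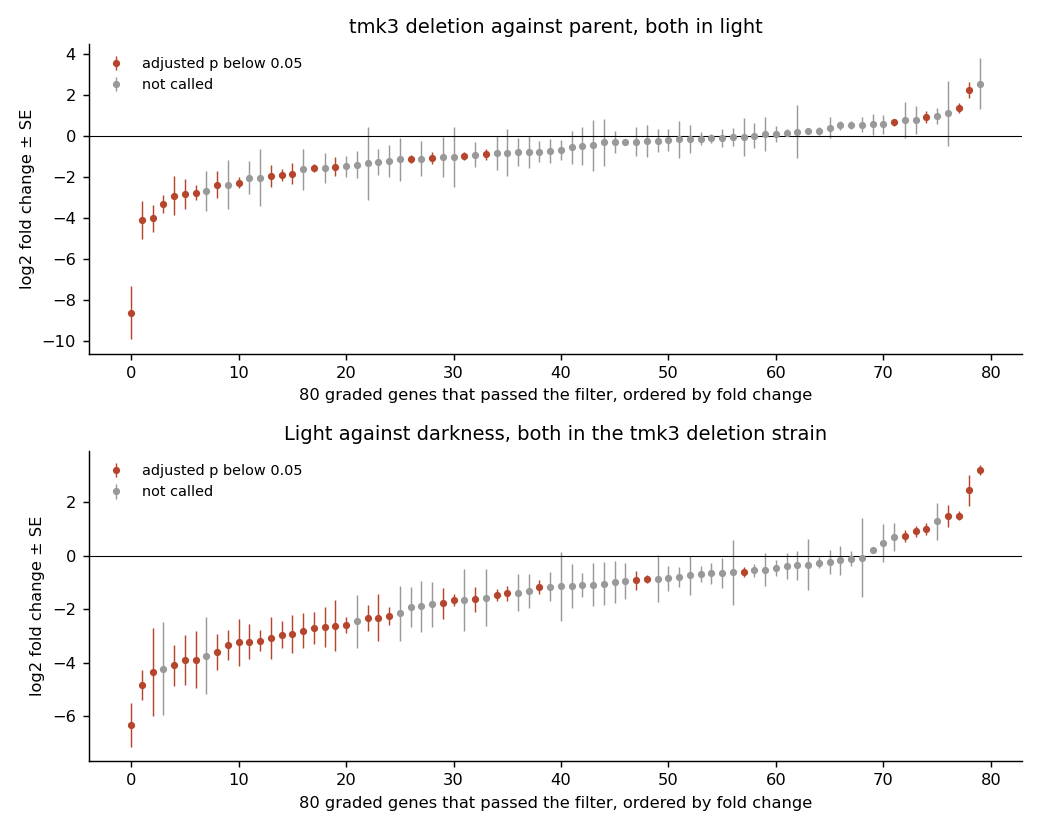
Log2 fold change with its approximate SE (vertical axis) of the 80 graded genes that passed the filter, each panel ordered by value; coloured points were called at an adjusted p below 0.05. Most points lie below 0, with medians of -0.70 for the deletion against the parent in light (top) and -1.15 for light against darkness without tmk3 (bottom).

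The graded genes were spread over all 7 letter series. Series A held 17, B 18, C 8, D 10, E 12, F 10 and G 9, or between 0.959% (C) and 2.07% (F) of the identifiers of the series above 20 CPM in the dark parent and away from the ends. Of the 84, 42 carry W and 42 carry C. On the assumption that numbers follow gene order, which the files do not state, the genes were mostly single: runs with gaps of at most 5 numbers held 12 of the 84 (14.3%), all as pairs. Among the other 5438 identifiers 396 (7.28%) had a graded gene within 5 numbers. With gaps of at most 10 the runs held 22 genes, and the longest was 3. The widest empty stretch between graded genes of a series was 514 numbers, in series F.

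**Figure D5:**
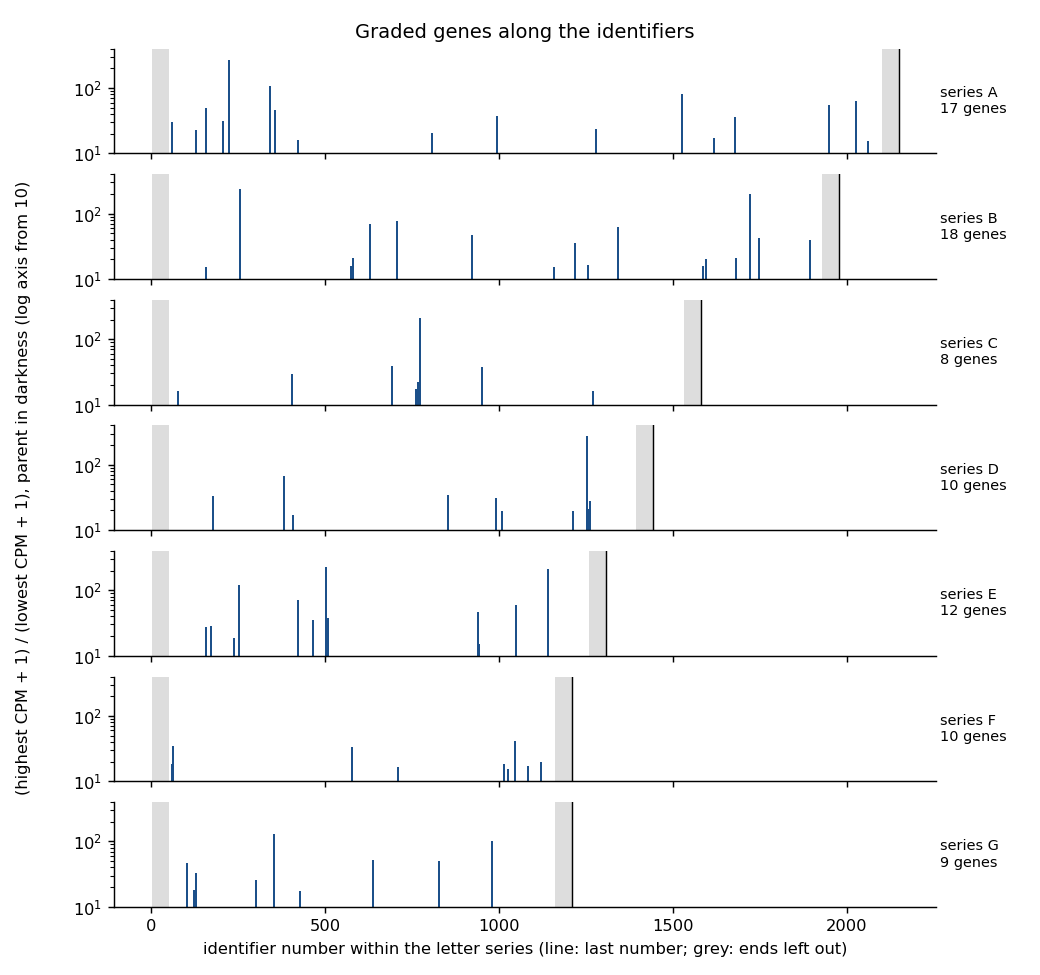
Position of the 84 graded genes by identifier number in the 7 letter series (horizontal axis), with the height of each line giving the ratio of highest to lowest replicate in the dark parent (log axis from 10). Grey bands are the first and last 50 numbers, which were left out, and the black line is the last number; genes stand mostly alone, with 6 pairs at most 5 numbers apart.

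The pairs differed in how alike their genes were. TrF0576W and TrF0577W, consecutive and with the same letter, had close profiles in all libraries: the dark parent held 49.7, 404 and 11.3 CPM of the first and 49.5, 379 and 12.5 CPM of the second, and the dark deletion strain 53.7, 7.62 and 75.7 CPM and 52.2, 7.97 and 83.7 CPM. The level of the second divided by that of the first stayed between 0.938 and 1.12 over the 12 libraries. No other 2 of the 84 were as close, the next pair differing by up to 0.49 on the log2(CPM + 1) scale and this one by up to 0.16. Whether the identifiers are near-identical copies that share reads was not tested, since no sequence of them was used here. Beside them TrF0575W, with a ratio of 10.2 just below the threshold, held 453, 2611 and 255 CPM in the dark parent and 484, 62 and 881 CPM in the dark deletion strain, the same order of replicates at a higher level. TrF0579W (4.04, 22.9 and 2.09 CPM) and TrF0580W (18.2, 87.6 and 12.2 CPM) were graded in the dark parent as well, with ratios of 7.73 and 6.69, while TrF0578W, next to TrF0577W, held at most 0.211 CPM in any library.

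TrB0705C and TrB0707C, which share the letter C, were both highest in replicate 2 of the dark parent, TrB0707C at 30.8, 222 and 11.5 CPM. TrB0706W between them was at 7.31, 12.5 and 0.432 CPM, with a ratio of 9.45, below both thresholds. The next identifiers on both sides, TrB0704C and TrB0708W, had ratios of 1.65 and 1.497. TrC0761C (290.4, 1020.0 and 57.5 CPM) and TrC0766W (21.9, 159.7 and 6.19 CPM) were separated by 4 identifiers with ratios between 1.34 and 2.24, and differed in light, where TrC0761C held 97.5, 112 and 119 CPM in the parent and TrC0766W 0.282, 0.634 and 0.379 CPM.

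TrD1254C and TrD1255W are consecutive with different letters. In the dark parent both were highest in replicate 2, TrD1255W with 14.9, 110.0 and 4.25 CPM, but they parted elsewhere: in the deletion strain TrD1254C fell in light and TrD1255W rose, as given above, and in the parent in light TrD1255W held 28.1, 31.4 and 32.2 CPM. TrE0940C held 108, 1159 and 23.8 CPM in the dark parent and its partner TrE0943C 40.3, 186 and 11.4 CPM. In the parent in light TrE0940C stood at 32.8, 33.4 and 34.5 CPM, far below the levels of TrE0943C given above. TrF0060C, with 19.95, 103 and 4.68 CPM in the dark parent, and TrF0062W enclose TrF0061W, which held 1.8, 12.5 and 0 CPM there, a ratio of 13.5 below both thresholds. Over all graded genes, the non-graded identifiers within 5 numbers of a graded gene had a median ratio of 1.67 in the dark parent, against 1.60 for those farther away, and 20 of 396 (5.05%) reached a ratio of 5, against 2.36%.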

How the data were processed

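The labels' protocols name a stranded library kit with ribosomal RNA depletion for all 12 mycelium samples. Values are raw read counts for each identifier, as deposited by the authors with no normalization. From the submitters' processing notes comes HISAT2 2.2.1, and from the design text the QM6a transcript set. Strand setting, counting filters and treatment of multi-mapped reads are not stated in these sources, so counts of overlapping genes and near-identical copies are uncertain. Each column was matched to the sample whose label holds that name (0 columns unused).

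CPM used column totals. The 9 libraries outside the dark parent were fitted in R 4.3.3 with edgeR 4.0.16 (filterByExpr, 8794 genes, TMM, 3 group means, quasi-likelihood F test, Benjamini-Hochberg). An approximate SE was taken as the size of the log2 fold change over the root of F, and it is unreliable where a group has few counts. The fit was tested on simulated data. DESeq2 1.42.0, other scalings and filters, a replicate block and left-out libraries were alternatives.

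Members, lists and comparisons were chosen with earlier results of these data known. The text names the 6 most abundant members; up to 3 called each way per comparison with the largest change and at least 10 counts on average; members of the 3 longest runs, ties by lowest identifier; those at the edges of the rule; up to 4 per group meeting its thresholds elsewhere; and the 3 highest and 3 lowest outside the dark parent. Other names were chosen after their values were seen: TrB0704C, TrB0706W, TrB0708W, TrB1257C, TrB1722C, TrD0176W, TrD1212W, TrE0940C, TrF0060C, TrF0061W, TrF0575W, TrF0576W, TrF0577W, TrF0578W, TrF0579W, TrF0580W and TrG0122W, and those at series ends.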

Additional observations from a re-analysis of the deposited data

How the results depend on the processing

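Fitted with all 12 libraries, so that the spread includes the dark parent libraries that chose the genes, 3 of the 83 graded genes tested fell and 0 rose for the deletion in light, beside 880 of all 8998 genes that fell (9.78%) and 969 that rose. For light without tmk3 4 fell and 1 rose, beside 1895 (21.1%) and 1590.0, so in both comparisons the graded genes fell at a lower share than all genes, the reverse of the fit without the dark parent. Fitted to the 2 groups alone, 68 graded genes were tested for the deletion in light. Of these 7 rose and 22 fell, beside 1508 and 1516 of all 8405 genes. For light without tmk3 the same kind of fit tested 72, of which 7 rose and 28 fell, beside 2231 and 2398 of 8621. Scaled by total count, 8 of 80 rose for the deletion in light, beside 1947 of 8794, with the median of all genes higher by 0.11 on the log2 scale. At an adjusted p below 0.01, 10 graded genes fell, and 841 of all genes rose and 816 fell, for the deletion in light. Leaving out single libraries, graded genes that fell ranged from 10 to 22 for the deletion and from 25 to 50 for light without tmk3, those that rose from 3 to 6 and from 6 to 7; all genes that fell ranged from 967 to 1603 and from 1971 to 2474, and those that rose from 995 to 1657 and from 1725 to 2323. For the 12 single genes chosen by their fold changes, the call was kept in 181 combinations of gene and alternative, the stricter threshold included, and lost in 23, with 0 reversed.

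The set itself held 46 genes with 5 CPM added in place of 1, and 93 with 0.1 CPM added. With TMM-scaled library sizes it held 105 genes, all 84 among them. It held 0 to 84 when 1 dark parent library was left out (14 without replicate 2 and 0 without replicate 3). Runs held 4 genes with gaps of 1 and 22 with gaps of 10. Same-numbered libraries of the 3 fitted groups deviated together with r between -0.30 and 0.14, so the numbers were not taken to pair them; with the replicate number as a block 15 graded genes fell and 3 rose for the deletion in light, beside 1219 and 1272 of all 8794 genes, and 28 and 7 for light without tmk3, beside 2264 and 1984. Genes with few counts in light are limited by depth.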

Other observations

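At the series ends, 9 identifiers met both thresholds and were left out by position: 3 in series G, 2 in A and 1 each in B, C, D and E. All 9 were highest in replicate 2 and lowest in replicate 3 of the dark parent. TrA0027W was the most abundant, with 633, 3378 and 47.3 CPM in replicates 1, 2 and 3 of the dark parent, 489, 24.2 and 574 CPM in the dark deletion strain, 401, 1272 and 525 CPM in the parent in light and 109, 80.8 and 342 CPM in the deletion strain in light. It showed all 3 orders of replicates described for 29 graded genes, and so did TrE1267W and TrG0043C. TrE1267W held 23.8, 11.7 and 23.2 CPM in the dark deletion strain, 216, 326 and 236 CPM in the parent in light and 15.6, 12.6 and 19.97 CPM in the deletion strain in light. TrG0043C held 75, 10.8 and 116 CPM in the dark deletion strain, 18.5, 241 and 47.8 CPM in the parent in light and 24.8, 14.9 and 116 CPM in the deletion strain in light. TrG0015C and TrG0016W are consecutive and were at most at 2.67 and 6.72 CPM outside the dark parent. They held 81.3, 199 and 3.24 CPM and 148, 310.3 and 6.48 CPM in replicates 1, 2 and 3 of the dark parent, and 0.384, 0.141 and 2.67 CPM and 0.461, 0.353 and 5.34 CPM in the dark deletion strain.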
